A study of Mus musculus with 6 samples.

Results

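The nuclear genes for mitochondrial ribosomal proteins were examined in brown adipose tissue (BAT) of mice that lack soluble ST2 (sST2). The members were the rows of the deposited count table whose symbol begins with Mrpl or Mrps and a number, without pseudogenes, and with at least 10 counts over the 6 libraries. This rule took 77 of the 35976 rows. Of these, 50 encode proteins of the large subunit, 26 encode proteins of the small subunit, and 1, Mrps36, was named as a subunit but is known as a component of the 2-oxoglutarate dehydrogenase complex. Libraries from BAT of 3 WT and 3 sST2-KO animals were analyzed. Values by library are given in the order of replicates 1, 2 and 3 of each group. The sST2-KO mice are homozygous for a CRISPR/Cas9 deletion in the Il1rl1 gene that removes the soluble form of the receptor ST2. WT and sST2-KO mice came from crosses of heterozygous mice on the C57BL/6J background, and the study used male mice that were 10 weeks old. Both groups had been subjected to surgical denervation of BAT and then to 8 h at 10 °C, so every value below is from denervated tissue in the cold, without a sham-operated or a warm group. The deletion is present in the whole animal, and which cells of BAT it acts on is not separated by this design.

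Mitochondria contain their own ribosomes, which translate the few mRNAs of the mitochondrial genome. These mRNAs encode core subunits of respiratory complexes I, III and IV and of ATP synthase, whereas all protein subunits of the ribosome are encoded in the nucleus, made in the cytosol and imported. Compared with its bacterial relatives, the mitochondrial ribosome has shorter rRNAs and many additional proteins. Brown adipocytes are rich in mitochondria, since their heat production by UCP1 requires a strong respiratory chain, and mitochondrial translation supplies a part of that chain.

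Some promoters of the members are shown first, since ETS factors such as GABP and the factor YY1 are known to act at many genes for mitochondrial proteins. RefSeq windows from 250 bases before to 50 bases after the start of the gene (build GRCm38.p6) were found for 68 of the 77 members. Both strands were searched for 6 motifs. The letters CCGGAAG, the core of an ETS site, were present in 24 of the 68 windows (35.3%), compared with 16.9% of the 10871 windows of genes tested here and 9.12% of all 27025 windows. The letters AAGATGGC, the core of a YY1 site, were present in 12 windows (17.6%), compared with 4.43% of tested genes and 2.88% of all windows. At least 1 of these motifs was held by 33 members and both by 3, in no case with shared bases. The following stretches are the 120 bases that end just before the start of 4 genes, with the ETS letters in capitals for Mrpl34, Mrpl51 and Mrpl52 and the YY1 letters in capitals for Mrps11. In Mrpl52 and Mrps11 the motif is on the other strand, so its reverse complement is marked. Mrpl34 and Mrpl51 were among the members that fell the most, Mrpl52 was among those with the smallest difference, and Mrps11 has its start next to that of another member.
Mrpl34: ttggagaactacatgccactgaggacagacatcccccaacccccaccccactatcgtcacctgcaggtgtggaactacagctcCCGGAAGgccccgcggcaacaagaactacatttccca
Mrpl51: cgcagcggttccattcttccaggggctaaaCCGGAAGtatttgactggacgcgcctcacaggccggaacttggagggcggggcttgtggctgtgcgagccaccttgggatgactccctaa
Mrpl52: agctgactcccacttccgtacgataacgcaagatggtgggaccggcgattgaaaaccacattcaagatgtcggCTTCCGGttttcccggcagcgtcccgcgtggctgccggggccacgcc
Mrps11: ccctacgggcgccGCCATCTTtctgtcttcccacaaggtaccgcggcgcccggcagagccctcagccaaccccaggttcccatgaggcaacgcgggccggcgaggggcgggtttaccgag

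These stretches lie at chr8:71464806-71464925 on the plus strand, chr6:125192080-125192199 on the plus strand, chr14:54426789-54426908 on the plus strand and chr7:78783011-78783130 on the plus strand, in the same order and all in GRCm38.p6. Of the other motifs, the palindromic NRF1 core was present in 3 windows (4.41%, compared with 1.92% of tested genes), AAGGTCA (ERR) in 4 (5.88% and 3.32%), CACGTG (E-box) in 5 (7.35% and 9.91%) and GGGCGG (Sp1) in 34 (50% and 61.4%). Mrpl12 held the ERR letters only after its start. A match describes the sequence and does not show that a factor is bound.

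**Figure D1:**
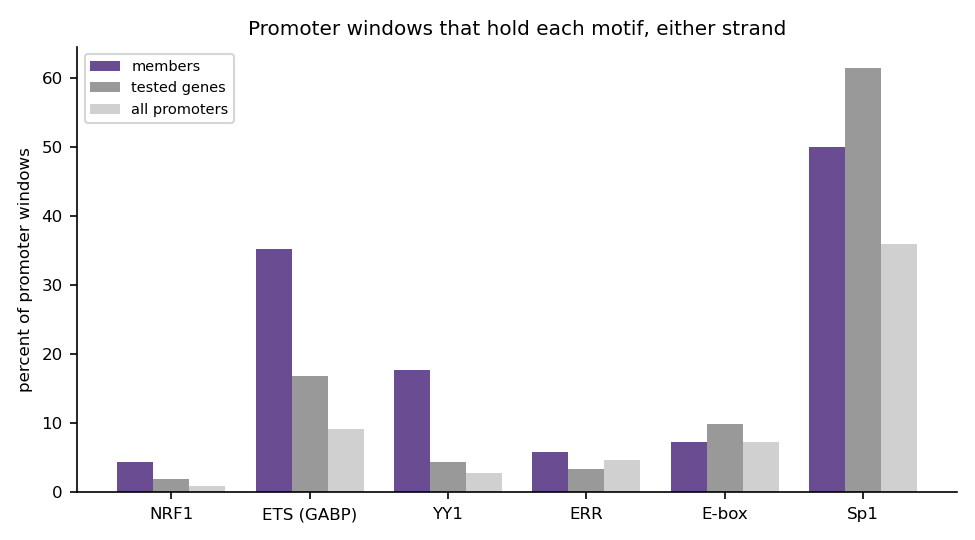
Percent of promoter windows (250 bases before to 50 after the start) that hold each motif on either strand, for 68 members, 10871 tested genes and all 27025 windows. The ETS and YY1 bars of the members stand at 35.3% and 17.6%, above 16.9% and 4.43% of tested genes, and the Sp1 bar at 50% is below 61.4%.

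The members were measured well. The counts of a library summed to 8159442 to 12874809, and the lowest count of any member in a library was 90. All 77 members passed the expression filter and were tested together with the other genes, 14542 in all. Values are given as normalized CPM, that is, counts scaled to the size of the library (CPM) with edgeR's TMM factors. The test is edgeR's quasi-likelihood test, adjusted over all genes tested by the method of Benjamini and Hochberg, and a gene is said to have fallen or risen where its adjusted p was under 0.05. The targeted gene Il1rl1 had 19, 19 and 6 counts in WT against 55, 69 and 142 in sST2-KO. These reads are summed over the soluble form and the membrane form ST2L, so this higher total does not check the loss of the soluble form. Some libraries stood apart by markers of other tissue. The sum of 10 skeletal muscle genes was 1297, 21.5 and 6.53 normalized CPM in WT against 6791, 3630 and 15684 in sST2-KO. WT replicate 2 had 4207 normalized CPM of hepatocyte genes, where no other library exceeded 32.7, and sST2-KO replicate 3 had 5530 of macrophage genes, where no other library exceeded 1288.

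The mitochondrial ribosomal protein genes were lower in sST2-KO BAT as a group. All 77 had a negative log2 fold change, compared with 48% of all genes tested. Of the 77, 41 fell (53.2%, against 9.1% of all genes), 23 of them by more than 2-fold (background 7.1%), and none rose (background 10.5%). At an unadjusted p under 0.05, 64 members were lower (16.7% of all genes) and none was higher (19.6% of all genes). DESeq2 called 49 members lower (13% of all genes) and none higher (14.1% of all genes). When libraries were scaled by their total counts alone, 24 members were lower (6.13% of all genes), 10 of them by more than 2-fold (4.75% of all genes). The median log2 fold change of the members was -0.81, with quartiles at -1.08 and -0.57, whereas the median of all genes was 0.03. In 66 members each sST2-KO library was below each WT library (background 19.7%), and in none was it the reverse (background 21.8%). Measured as sST2-KO over WT, 23 members were under 50% of the WT level, 44 were between 50% and 75%, and 10 were above 75%.

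The number of calls depended on single libraries. Without WT replicate 3, which had the highest value of the 3 WT libraries in 67 members, the median was -0.64 but no member passed the threshold, and among all genes then tested 22 were lower and 36 higher. The share of all genes called lower fell to 0.146% in that fit. When another library was left out, both counts moved. Members lower numbered 46 without WT replicate 1 (8.04% of all genes) and 12 without WT replicate 2 (3.25%). They numbered 19 without sST2-KO replicate 1 (6.91%), 26 without sST2-KO replicate 2 (6.2%) and 15 without sST2-KO replicate 3 (4.65%).

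**Figure D2:**
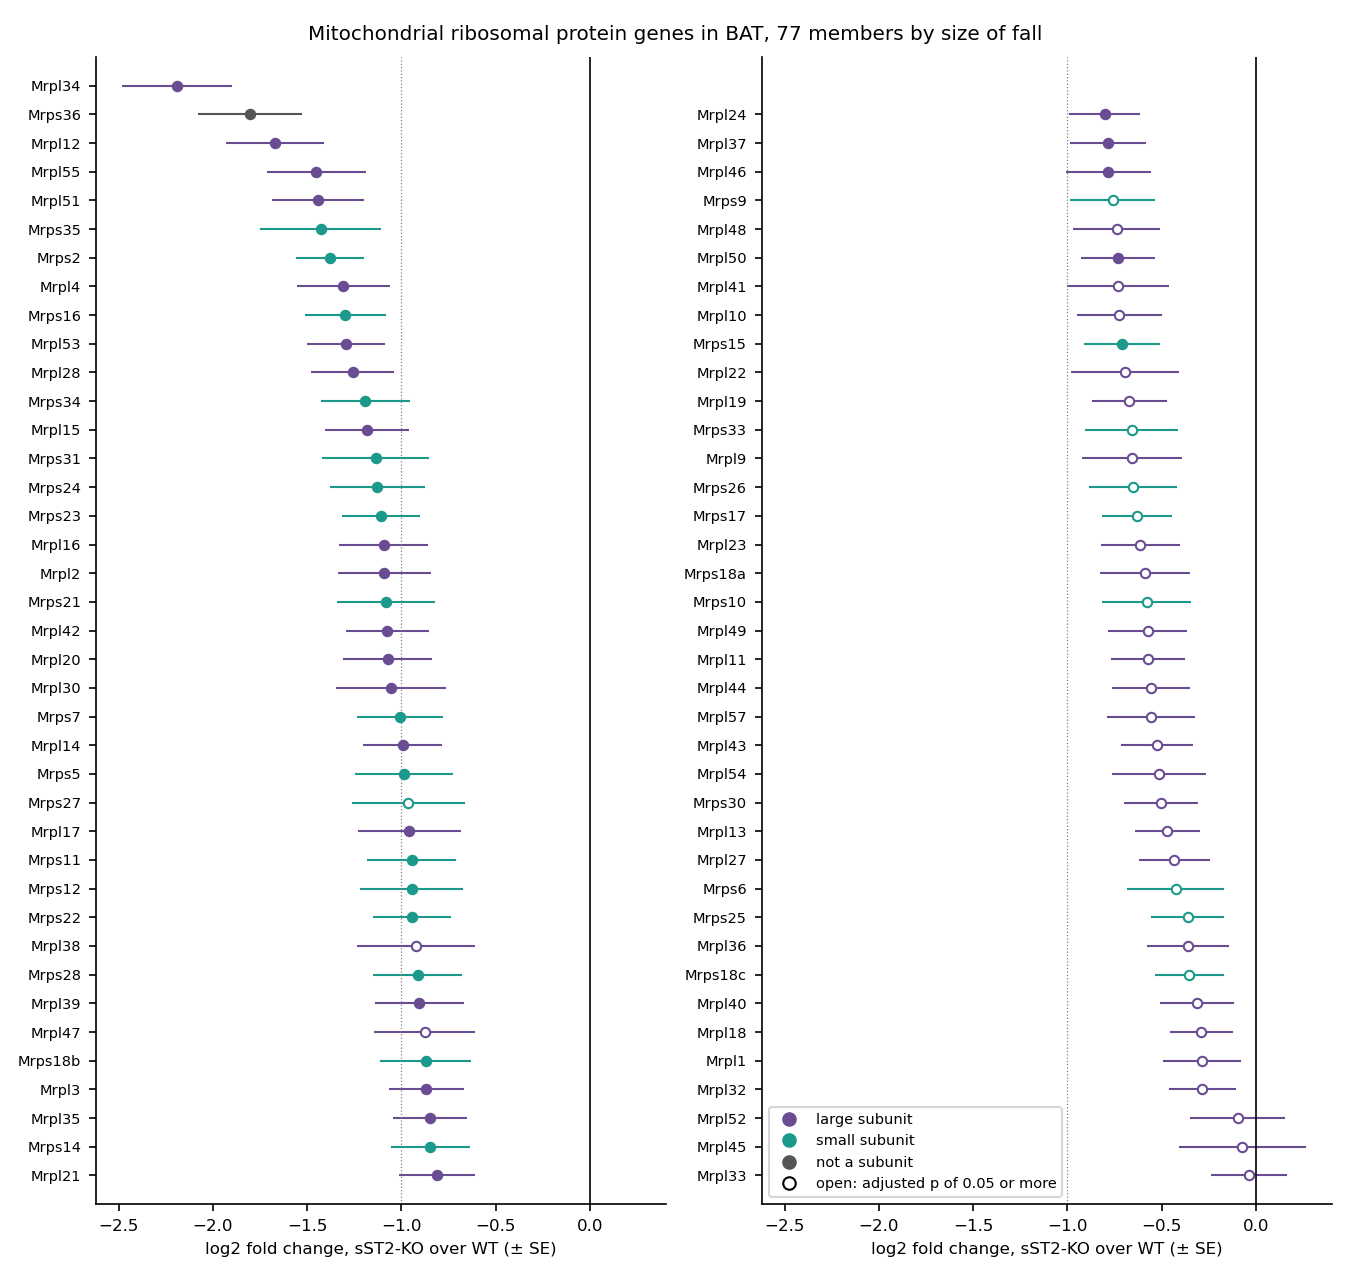
Log2 fold change (sST2-KO over WT, ± SE) of the 77 members, ordered from the largest fall at the top left to the smallest at the bottom right, with filled points for an adjusted p under 0.05. The points run from -2.19 for Mrpl34 to -0.04 for Mrpl33, and none lies above 0.

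In bulk tissue, fewer cells of a type and less RNA per cell cannot be told apart. The summed level of the members was 3753, 4503 and 5614 normalized CPM in WT (4624 ± 936, SD, n = 3). In sST2-KO it was 2623, 2713 and 2209 (2515 ± 269, SD, n = 3), so the groups did not overlap and the sST2-KO mean was 0.544 of that of WT. As a share of all raw counts, the members took 0.373%, 0.412% and 0.463% in WT and 0.292%, 0.280% and 0.251% in sST2-KO. The 3 WT libraries differed from one another in a shared way. WT replicate 1 was the lowest of its group in 62 members, and sST2-KO replicate 3 was the lowest of its group in 55. The median coefficient of variation of the members was 23.2% in WT and 12.6% in sST2-KO, compared with 20.7% and 22.6% over all genes.

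The 5 members with the largest falls were Mrpl34, Mrps36, Mrpl12, Mrpl55 and Mrpl51. Mrpl34, the counterpart of a small basic protein of the bacterial large subunit, lies on chromosome 8 of GRCm39 from 71917555 to 71918396. It had 54.8, 67.5 and 97.2 normalized CPM in WT against 14.8, 20.9 and 12.3 in sST2-KO. Its lowest WT value was more than its highest sST2-KO value by a wide gap, and the log2 fold change was -2.19 ± 0.29 (SE, adjusted p = 0.0122). Mrps36, the member that is not a ribosomal subunit, followed at 88.1, 73.8 and 124.8 in WT and 26.7, 34.8 and 20.6 in sST2-KO. Its log2 fold change was -1.80 ± 0.28 (SE, adjusted p = 0.0136).

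Mrpl12 encodes the protein of the flexible stalk that recruits translation factors. Its levels were 120.4, 159.4 and 210.6 normalized CPM in WT and 46.2, 62.2 and 45.8 in sST2-KO, without overlap (log2 fold change -1.67 ± 0.26, SE, adjusted p = 0.0136). Its partners at the base of the stalk had smaller differences that did not pass the test. Mrpl10 had 57.0, 79.3 and 80.8 in WT and 47.4, 49.96 and 33.9 in sST2-KO, and Mrpl11 had 37.6, 49.0 and 55.7 in WT and 34.4, 31.9 and 29.2 in sST2-KO. In both genes the groups did not overlap. The log2 fold change was -0.73 ± 0.23 (SE, adjusted p = 0.0593) for Mrpl10 and -0.57 ± 0.20 (SE, adjusted p = 0.0769) for Mrpl11. The difference between Mrpl12 and its partners was not tested.

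Mrpl55, the counterpart of a bacterial large subunit protein, had 41.2, 46.3 and 68.9 normalized CPM in WT and 17.3, 24.0 and 16.0 in sST2-KO (log2 fold change -1.45 ± 0.26, SE, adjusted p = 0.0163). Mrpl51, a mitochondria-specific protein of the large subunit, had 104.4, 119.8 and 180.9 in WT and 48.8, 53.8 and 46.4 in sST2-KO (-1.44 ± 0.24, SE, adjusted p = 0.0150). The 3 sST2-KO libraries were close to each other in Mrpl51, and the WT libraries were spread mainly by replicate 3. Each of these 5 members passed the threshold when any library other than WT replicate 3 was left out, and missed it without that library.

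Genes for core proteins of the large subunit, which have counterparts in bacteria, also fell. Mrpl4 had 70.5, 102.9 and 125.9 normalized CPM in WT and 40.0, 45.4 and 35.4 in sST2-KO (log2 fold change -1.31 ± 0.25, SE, adjusted p = 0.0168). Mrpl2, a protein near the catalytic center, had 67.5, 95.9 and 117.2 in WT and 44.9, 50.8 and 36.1 in sST2-KO (-1.09 ± 0.25, SE, adjusted p = 0.0260). The smaller fall of Mrpl3 was from 59.9, 63.4 and 79.9 to 32.3, 44.3 and 34.9 (-0.87 ± 0.20, SE, adjusted p = 0.0272). The groups did not overlap in any of the 3.

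Another set of members lies around the exit of the tunnel, through which the new protein leaves toward the inner membrane. Mrpl24 fell from 113.2, 115.6 and 139.4 normalized CPM in WT to 70.5, 80.1 and 60.5 in sST2-KO (log2 fold change -0.80 ± 0.19, SE, adjusted p = 0.0285). Mrpl23 had 35.4, 50.8 and 56.6 in WT and 30.0, 32.5 and 30.7 in sST2-KO, and its difference of -0.61 ± 0.21 (SE) had an adjusted p of 0.0762. Mrpl45, which anchors the ribosome at the inner membrane, had 55.0, 58.4 and 71.5 in WT and 92.4, 45.4 and 37.9 in sST2-KO. Its sST2-KO replicate 1 was above all WT libraries and the other sST2-KO libraries were below them, so the log2 fold change of -0.07 ± 0.34 (SE, adjusted p = 0.900) was -0.56 without that library and 0.15 without sST2-KO replicate 3. Differences between these genes were not tested. Mrpl44, which is related to ribonuclease III, had 23.7, 30.5 and 31.9 in WT and 21.0, 21.4 and 16.3 in sST2-KO (-0.55 ± 0.21, SE, adjusted p = 0.0983).

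The large subunit holds some proteins whose symbols name the small one. Mrps30 had 36.8, 52.4 and 50.5 normalized CPM in WT and 36.2, 31.8 and 30.5 in sST2-KO, and Mrps18a had 50.4, 64.4 and 71.5 in WT and 44.1, 49.6 and 30.2 in sST2-KO. In both, the highest sST2-KO value was just under the lowest WT value, with log2 fold changes of -0.50 ± 0.19 (SE, adjusted p = 0.106) and -0.59 ± 0.24 (SE, adjusted p = 0.1196). Over the whole large subunit, 23 of 50 members fell (background 9.1%), 13 of them by more than 2-fold (background 7.1%). The median log2 fold change was -0.73. The 30 members with a bacterial counterpart had a median of -0.83, with 16 calls. The 20 mitochondria-specific members had a median of -0.66, with 7 calls. The difference between these classes was not tested.

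In the small subunit, 17 of 26 members fell (background 9.1%), 9 of them by more than 2-fold (background 7.1%). The median log2 fold change was -0.95. Mrps2, a core protein with a bacterial counterpart, had 54.2, 60.4 and 69.9 normalized CPM in WT and 25.02, 25.04 and 20.7 in sST2-KO. Both groups were tight and far apart (-1.38 ± 0.18, SE, adjusted p = 0.0122). Mrps16 had 51.9, 62.8 and 81.6 in WT and 23.8, 30.0 and 26.1 in sST2-KO (-1.30 ± 0.22, SE, adjusted p = 0.0150). Mrps34, a mitochondria-specific protein needed for a stable small subunit, had 57.3, 78.7 and 96.0 in WT and 36.9, 36.9 and 27.7 in sST2-KO (-1.19 ± 0.24, SE, adjusted p = 0.0187). Most exon bases of Mrps34, 86.0%, are also exons of neighbors such as Nme3 and Eme2, so its reads may be split or lost by the counting.

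Genes for further core proteins of the small subunit fell as well. Mrps7 had 80.2, 129.7 and 125.1 normalized CPM in WT and 55.0, 60.9 and 50.8 in sST2-KO (log2 fold change -1.01 ± 0.23, SE, adjusted p = 0.0252). Mrps5 had 54.7, 58.6 and 76.2 in WT and 32.9, 40.7 and 22.0 in sST2-KO (-0.99 ± 0.26, SE, adjusted p = 0.0377). Mrps12, which belongs to the decoding center, had 22.1, 39.7 and 34.1 in WT and 13.6, 20.3 and 16.0 in sST2-KO (-0.95 ± 0.27, SE, adjusted p = 0.0482). The groups did not overlap in these 3 genes, and exon bases of Mrps7 are shared with Gga3 and Mif4gd to 57.8%. The mitochondria-specific Mrps22 had 24.6, 22.7 and 26.5 in WT and 11.4, 15.3 and 11.7 in sST2-KO (-0.95 ± 0.21, SE, adjusted p = 0.0233). Mrps27, which contains RNA-binding repeats, had 30.4, 35.9 and 49.1 in WT and 23.6, 23.02 and 12.4 in sST2-KO, and missed the threshold (-0.96 ± 0.30, SE, adjusted p = 0.0596).

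Further members are relatives of the bacterial S18 protein. Mrps18b had 40.4, 59.4 and 70.8 normalized CPM in WT and 30.6, 35.5 and 27.1 in sST2-KO and fell (log2 fold change -0.87 ± 0.24, SE, adjusted p = 0.0426). Mrps18c had 35.4, 39.9 and 49.4 in WT and 30.2, 33.8 and 33.5 in sST2-KO and was not called (-0.35 ± 0.18, SE, adjusted p = 0.208). Exon bases of Mrps18c are shared with Abraxas1 and Helq to 78.2%. The difference between the relatives was not tested.

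**Figure D3:**
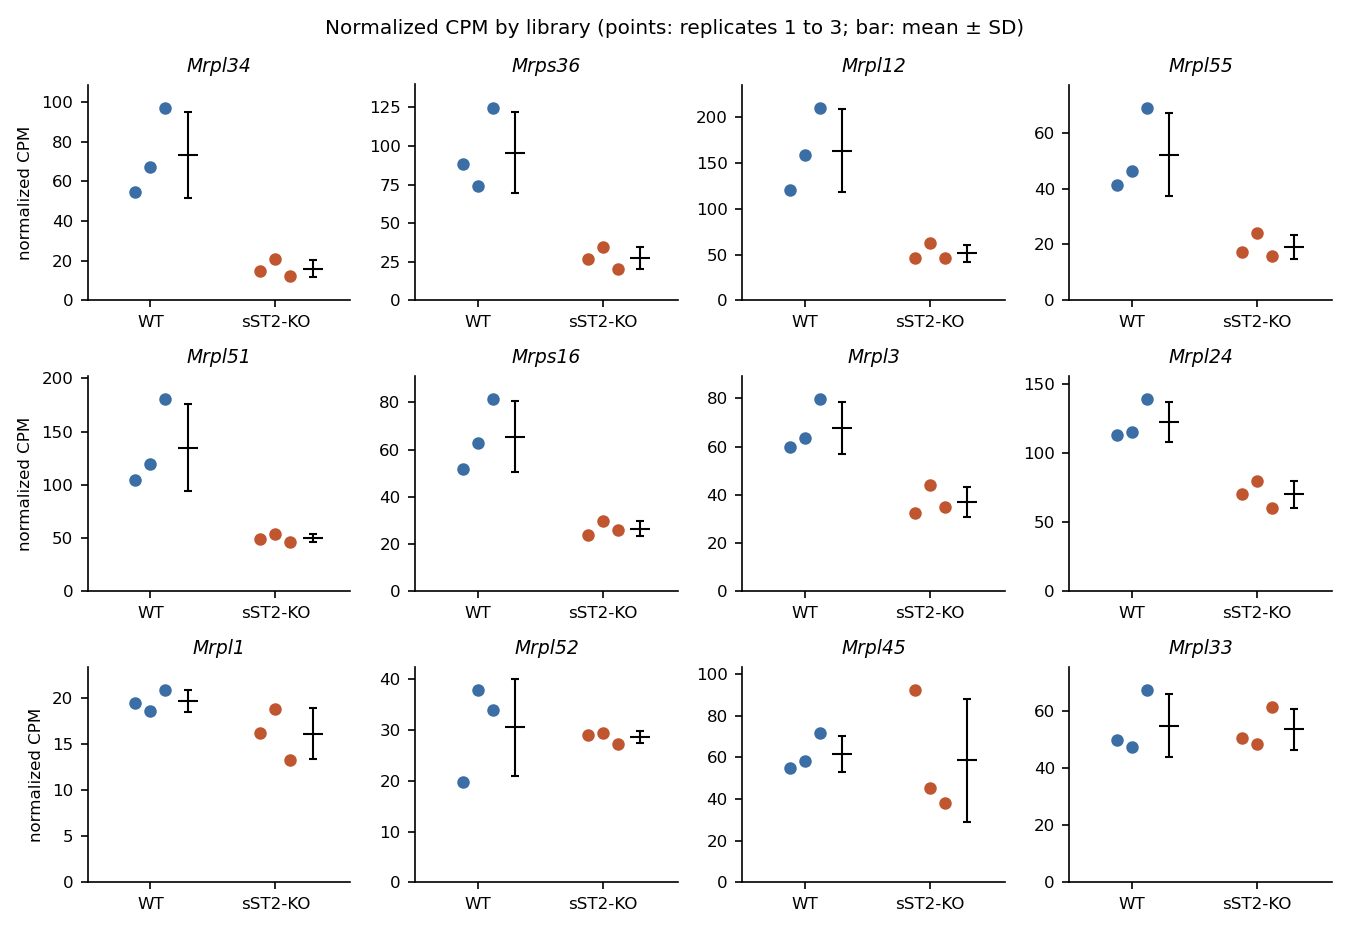
Normalized CPM of 12 members in each library (points, replicates 1 to 3 from left to right in each group) with the mean ± SD beside them. The groups are apart in Mrpl34 and Mrps36 through Mrpl24, and overlap in Mrpl1, Mrpl52, Mrpl45 and Mrpl33, where sST2-KO replicate 1 of Mrpl45 stands at 92.4.

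A few members were close to the WT level. Mrpl33, the counterpart of a small bacterial zinc-ribbon protein, had 49.7, 47.3 and 67.3 normalized CPM in WT and 50.6, 48.2 and 61.4 in sST2-KO. Its ranges lay over each other, and the log2 fold change was -0.04 ± 0.20 (SE, adjusted p = 0.916). Mrpl52, a mitochondria-specific protein, had 19.8, 37.9 and 33.9 in WT and 29.0, 29.4 and 27.2 in sST2-KO, where the sST2-KO values lay inside the WT range (-0.10 ± 0.25, SE, adjusted p = 0.813). Together with Mrpl45, these were the members whose sign depended on how the libraries were scaled: by total counts they were at 0.25 (Mrpl33), 0.18 (Mrpl52) and 0.21 (Mrpl45), and the other 74 members stayed negative. Mrpl32, which is processed by the m-AAA protease before it enters the ribosome, had 29.0, 25.5 and 32.1 in WT and 24.5, 21.4 and 25.2 in sST2-KO (-0.29 ± 0.18, SE, adjusted p = 0.289). Mrpl1, the protein of the second stalk, had 19.5, 18.7 and 21.0 in WT and 16.2, 18.9 and 13.3 in sST2-KO (-0.29 ± 0.21, SE, adjusted p = 0.355). In total, 36 members were not called, and in 25 of them each sST2-KO library was below each WT library. Over all genes tested, called or not, this held for 19.7%.

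Levels per transcript length ordered the members differently in the groups. Divided by the length of the canonical GENCODE transcript, Mrps21 had 134 ± 48 and Mrpl42 134 ± 33 normalized CPM per kb in WT (SD, n = 3), the first and second ranks, with no difference beyond their spread. Mrpl34 followed at 112 ± 33 and Mrpl33 was ninth at 74.8 ± 14.9. In sST2-KO, Mrpl33 had the first rank at 72.9 ± 9.6, before Mrpl42 at 63.4 ± 6.7 and Mrps21 at 63.3 ± 5.5, and Mrpl34 was at rank 24 with 24.5 ± 6.7. The first 3 of sST2-KO do not differ beyond their spread. Mrps21 and Mrpl42 themselves fell, by 1.08 on the log2 scale for both (adjusted p = 0.0300 and 0.0198). The lowest levels per length in WT were those of Mrpl1 at 4.61 ± 0.27, Mrpl47 at 6.28 ± 1.64 and Mrpl19 at 6.97 ± 1.40 normalized CPM per kb, and the last 2 do not differ beyond their spread. Canonical transcripts with long ends lower this value where the tissue uses shorter ones.

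The fold changes differed with the WT level. Of the 38 members above the median WT level of 56.8 normalized CPM, 28 fell, with a median log2 fold change of -1.03. Of the 39 at or below it, 13 fell, with a median of -0.65. Over all genes tested, 9.1% fell. Across the 77 members the correlation of log2 fold change with the log2 WT level was -0.473 (Pearson) and -0.518 (Spearman), and with log2 transcript length 0.085 and 0.076. These describe genes of the same 6 libraries, the fold change contains the WT level, and low counts give less power. Members with over 10% of their exon bases shared with another gene of the table (21 members) had a median of -0.78 with 10 calls, and the other 56 a median of -0.84 with 31 calls.

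The balance between the subunits moved little. The summed level of the large subunit was 217.5%, 219.5% and 218.1% of that of the small subunit in WT against 230.6%, 227.7% and 224.2% in sST2-KO. The WT values were tight and below all sST2-KO values, and this difference was not tested.

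Some members share a start region with a neighbor on the other strand. Within 500 bases, 13 members had such a neighbor among the protein-coding genes tested (canonical transcripts, GRCm39). Mrps11 and Mrpl46 form 1 pair, with 30 bases between their starts, and both fell. Mrps11 had 19.7, 22.8 and 31.2 normalized CPM in WT and 13.3, 13.4 and 11.5 in sST2-KO (log2 fold change -0.95 ± 0.23, SE, adjusted p = 0.0318). Mrpl46 had 27.1, 31.2 and 43.3 in WT and 18.5, 22.5 and 18.1 in sST2-KO (-0.78 ± 0.23, SE, adjusted p = 0.0496). The 11 neighbors that are not members had a median log2 fold change of -0.13, with quartiles at -0.62 and 0.09. Of these, 2 fell (background 9.1%) and 1 rose (background 10.5%), too few genes to set apart from all genes. Peo1, which encodes the mitochondrial DNA helicase Twinkle, fell beside Mrpl43 (-0.79 ± 0.16, SE, adjusted p = 0.0196), and Apba3 fell beside Mrpl54 (-0.92 ± 0.19, SE, adjusted p = 0.0195). Ncapd2, a condensin subunit whose start is 44 bases from that of Mrpl51, rose (0.88 ± 0.19, SE, adjusted p = 0.0238), so the members of that pair changed in opposite directions. Fau, which encodes a protein of the cytosolic ribosome and starts 52 bases from Mrpl49, was at -0.0014 ± 0.22 (SE, adjusted p = 0.998), and Mrpl49 was at -0.57 ± 0.21 (SE, adjusted p = 0.0913). Sars2, the mitochondrial seryl-tRNA synthetase beside Mrps12, was at -0.22 ± 0.23 (SE, adjusted p = 0.531). Exon bases of Mrps12 are shared with Sars2 to 19.3%, and those of Mrpl43 with Peo1 and Sema4g to 55.3%. By promoter motif, the members with the ETS letters had a median of -0.84 and those without -0.78, and the letters were held by 12 of 36 members that fell and 12 of 32 others. The YY1 letters were held by 7 of the 36 and 5 of the 32, with a median of -0.90 for members with them and -0.77 for those without.

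Genes for the subunits that carry other symbols were also lower, and in all 5 the groups did not overlap (background 19.7%). Ptcd3, a small subunit protein with RNA-binding repeats, fell by 1.10 ± 0.18 on the log2 scale (SE, adjusted p = 0.0150), Aurkaip1 by 0.78 ± 0.22 (SE, adjusted p = 0.0445) and Chchd1 by 0.77 ± 0.18 (SE, adjusted p = 0.0269). Gadd45gip1 was at -0.75 ± 0.22 (SE, adjusted p = 0.0501) and the GTP-binding Dap3 at -0.54 ± 0.19 (SE, adjusted p = 0.0771).

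Other genes of mitochondrial translation were taken as fixed lists. Of the 73 tested genes of 4 lists (the subunits above, assembly and rRNA modification, translation factors, and aminoacyl-tRNA synthetases), 72 had a negative log2 fold change and 25 fell (34.2%, against 9.1% of all genes), with a median of -0.72. Among 30 assembly factors, 8 fell (median -0.74). They included Rnmtl1, an rRNA methyltransferase (-1.65 ± 0.34, SE, adjusted p = 0.0198), Mtg1, a GTPase of large subunit assembly (-1.13 ± 0.29, SE, adjusted p = 0.0340), and Afg3l2 and Spg7, the subunits of the m-AAA protease that processes Mrpl32 (-1.38 ± 0.24, SE, adjusted p = 0.0154, and -1.04 ± 0.23, SE, adjusted p = 0.0241). Among 18 translation factors, 7 fell (median -0.47). The elongation factors Tufm, at -1.66 ± 0.29 (SE, adjusted p = 0.0154), and Gfm1, at -1.03 ± 0.21 (SE, adjusted p = 0.0186), the mRNA-binding Lrpprc, at -1.22 ± 0.23 (SE, adjusted p = 0.0176), and the membrane insertase Oxa1l, at -1.10 ± 0.24 (SE, adjusted p = 0.0230), were among them. The release and recycling factors Mtrf1, Mtrf1l and Mrrf were at -0.17, -0.28 and -0.19, with adjusted p from 0.494 to 0.703. Among 20 synthetase genes, 7 fell (median -0.72), with Cars2 at -3.07 ± 0.63 (SE, adjusted p = 0.0202), and Lars2 was higher without a call (0.79 ± 0.50, SE, adjusted p = 0.2999).

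Of 16 genes for transcription and copying of mitochondrial DNA, 5 fell (background 9.1%) and 1 rose (background 10.5%), with a median of -0.37. The mitochondrial RNA polymerase Polrmt fell (log2 fold change -1.57 ± 0.27, SE, adjusted p = 0.0154) and the transcription factor Tfb2m also (-1.15 ± 0.24, SE, adjusted p = 0.0203), and Polg2, an accessory subunit of the DNA polymerase, rose by 1.43 ± 0.32 (SE, adjusted p = 0.0248). Tfam, which packages mitochondrial DNA, was at -0.37 ± 0.20 (SE, adjusted p = 0.229). Of 13 regulators of mitochondrial biogenesis, 3 fell: the coactivator Ppargc1a (log2 fold change -2.20 ± 0.41, SE, adjusted p = 0.0167), the nuclear receptor Esrra (-1.78 ± 0.21, SE, adjusted p = 0.0100) and Gabpa, the DNA-binding subunit of GABP (-0.98 ± 0.20, SE, adjusted p = 0.0186). Its partner Gabpb1 was at 0.37 ± 0.22 (SE, adjusted p = 0.267), Nrf1 at 0.28 ± 0.18 (SE, adjusted p = 0.299) and Yy1 at 0.25 ± 0.19 (SE, adjusted p = 0.377).

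**Figure D4:**
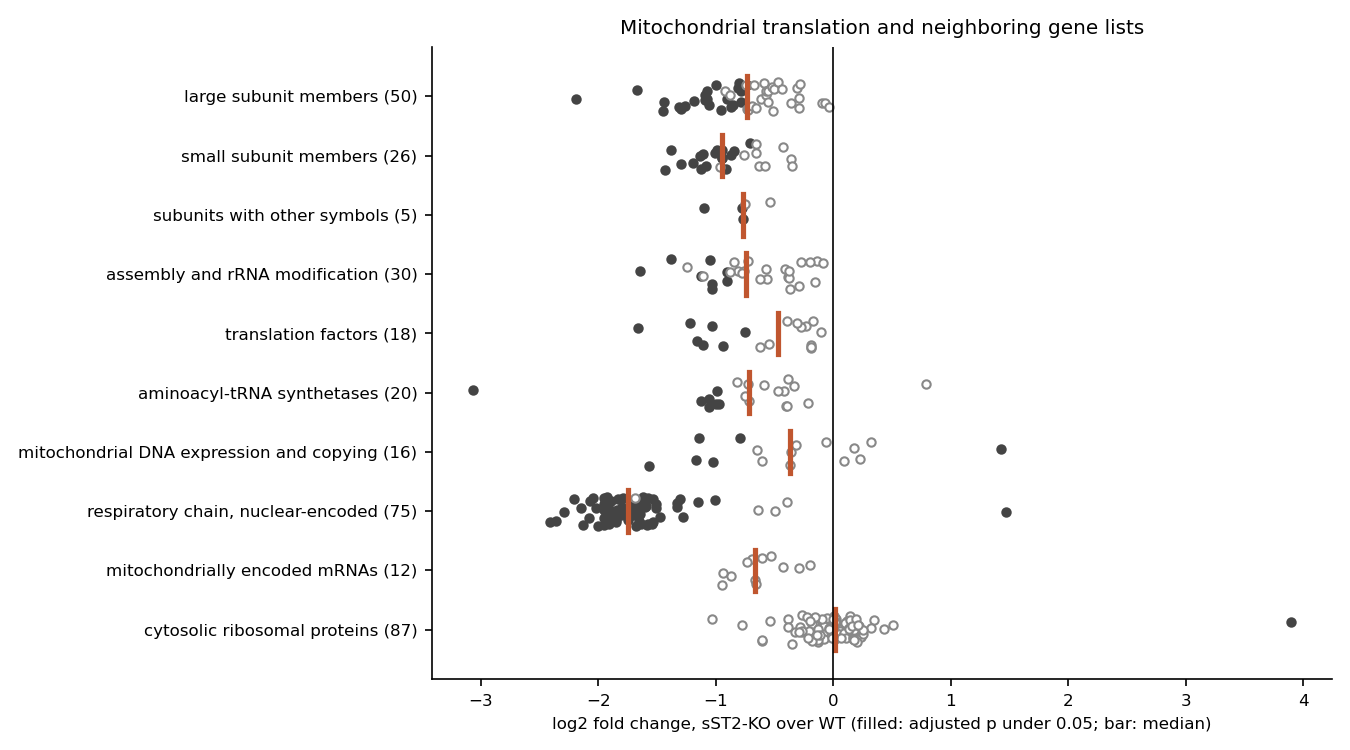
Log2 fold change (sST2-KO over WT) of each tested gene in the subunits and in 8 gene lists, with the number tested in parentheses, filled points for an adjusted p under 0.05 and a bar at the median. The medians stand at -0.73 and -0.95 for the large and small subunit members, at -1.75 for the nuclear-encoded respiratory chain and at 0.01 for the cytosolic ribosomal proteins.

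The respiratory chain contains the proteins that the mitochondrial ribosome makes, beside many that are encoded in the nucleus. Of 75 nuclear-encoded genes of the respiratory chain and ATP synthase, 70 fell (background 9.1%), each by more than 2-fold (background 7.1%). The median log2 fold change was -1.75, and 1 gene, Atp5g1, rose (1.47, adjusted p = 0.0204, background 10.5%). The summed level of the members was 11.2%, 10.6% and 9.07% of the summed level of these genes in WT against 17.9%, 16.9% and 23.2% in sST2-KO, so every sST2-KO library had the higher ratio. The mRNAs encoded in the mitochondrial genome were lower by fitted fold change, without a call. Their summed level was 157450, 128660 and 192480 normalized CPM in WT and 127290, 160590 and 59898 in sST2-KO, with overlap. All 12 tested had a negative log2 fold change, the median was -0.66 and no adjusted p was under 0.05. In 1 of the 12 each sST2-KO library was below each WT library (background 19.7%). Cox1 mRNA, listed as COX1, was at -0.20 ± 0.60 (SE, adjusted p = 0.838) and CYTB at -0.94 ± 0.51 (SE, adjusted p = 0.227), with large spread among libraries.

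The genes for proteins of the cytosolic ribosome, which makes all other proteins of the cell, were taken for comparison. Of 87 tested, none fell (background 9.1%) and 1 rose (background 10.5%), with a median log2 fold change of 0.01. The one that rose was Rpl3l, a form of striated muscle (3.90, adjusted p = 0.0172). The summed level of the members was 13.6%, 12.4% and 15.5% of that of the cytosolic ribosomal proteins in WT against 7.73%, 8.47% and 6.90% in sST2-KO, without overlap.

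**Figure D5:**
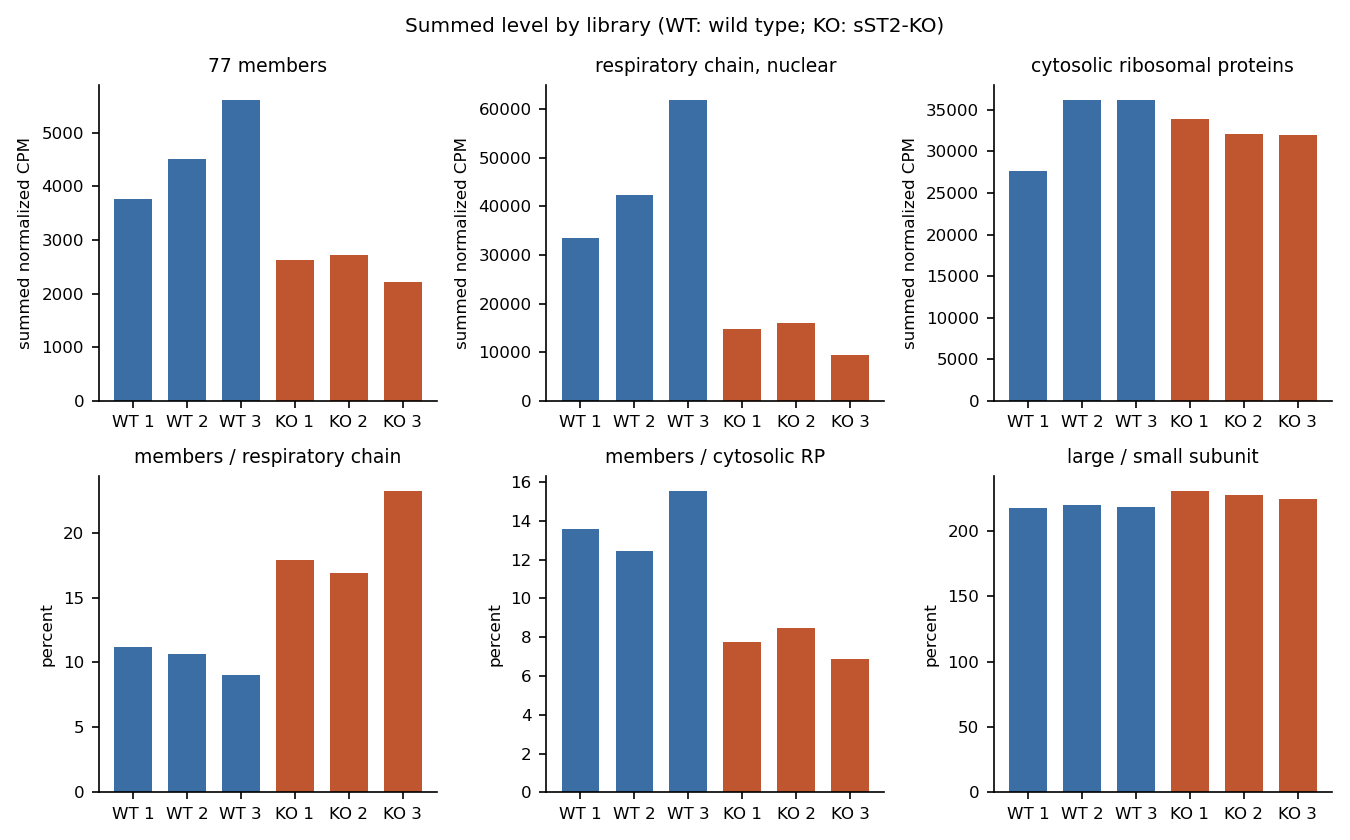
Summed normalized CPM by library for the 77 members, the nuclear-encoded respiratory chain and the cytosolic ribosomal proteins (top), and the members as a percent of the other sums and the large as a percent of the small subunit (bottom). The members' bars run from 3753 to 5614 in WT and from 2209 to 2713 in sST2-KO, whereas those of the cytosolic ribosomal proteins overlap between the groups.

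Markers of cell types were counted in the same way, where 9.1% of all genes tested fell and 10.5% rose. Of 8 brown adipocyte genes, 7 fell, and their summed level was 8212, 10179 and 15511 normalized CPM in WT and 519, 1796 and 338 in sST2-KO. Of 7 genes of all adipocytes, 1 fell (median -0.98), 6 had a negative log2 fold change and 1, Lep, a positive one. Their summed level was 15684, 19876 and 20889 in WT and 11155, 10355 and 5424 in sST2-KO, without overlap. All 10 skeletal muscle genes were higher in each sST2-KO than in each WT library (median 4.13, no call, background 21.8%). Among immune cell genes, 5 of 6 T cell genes rose (median 3.27), 1 of 8 macrophage genes rose (median 1.03) and 1 of 5 neutrophil genes rose (median 2.74). Of 5 endothelial genes 1 fell (median -0.04), and of 5 fibroblast genes none was called (median 0.27). The T cell sum was 8.58, 9.90 and 12.1 in WT and 89.1, 84.4 and 112.7 in sST2-KO. Among the WT libraries, replicate 1 had the most muscle RNA and was the lowest in most members. Without it, the muscle sum of WT was at most 21.5 and the members' median log2 fold change was -0.93 with 46 calls. In that fit 8.04% of all genes were called lower. Without sST2-KO replicate 3, which had the highest muscle and macrophage sums, the median was -0.74 with 15 calls, where 4.65% of all genes were called lower. The part of other cell types and of the number of brown adipocytes in the members' fall was not tested.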

How the data were processed

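RNA was extracted from BAT of 3 WT and 3 sST2-KO mice, and poly-A-selected libraries were made, per the labels with the NEBNext Ultra RNA kit, whose standard protocol does not mark the strand, and sequenced as 150 bp paired-end reads. According to the submitters' processing notes and the methods, reads were checked with FastQC 0.12.1, aligned to mm39 with HISAT2 2.2.1 and counted with htseq-count, whose annotation and strand setting are not given in the sources used here. The deposited values are raw counts per gene symbol, and 0 columns were left unused. Without strand, reads of overlapping genes on opposite strands cannot be told apart, and 43 members share exon bases with another gene of the table. Reads from processed pseudogenes may also be missing from or added to a member.

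Counts were analyzed with edgeR 4.0.16 in R 4.3.3 (filterByExpr, TMM factors, glmQLFit and glmQLFTest without covariates). The TMM factors were 0.996, 0.924 and 0.825 in WT and 1.12, 1.03 and 1.14 in sST2-KO. Each sST2-KO factor was thus above each WT factor. The standard error is the log2 fold change divided by the square root of F. Thresholds were an adjusted p of 0.05 and, as the methods name it, a fold change of 2. p-values measure the spread between these mice, and for 1 value in 3 against 3 mice, the smallest two-sided p of an exact permutation test is 0.1. The alternatives tried were total counts, RLE factors, DESeq2 1.42.0, removal of mitochondrially encoded genes, other filters, robust estimation, a block for the replicate number and each library left out. No library was a copy of another of its group (chi-square per degree of freedom from 40.1 to 114).

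The members and lists were chosen with earlier results of these data known. Members named are the 5 largest and 5 smallest falls, the 3 highest and 3 lowest levels per length over all libraries, and a fixed choice by role. Genes named in other lists or as neighbors were picked after their values were seen. The mitochondrially encoded genes are listed without the prefix mt- in the table and were matched as listed (ND1, COX1 and so on). Mrpl58 is not listed under that symbol and is no member. Of 35974 different symbols, 28393 matched GENCODE M39 on GRCm39, from which lengths, overlaps and coordinates were taken. Promoter sequences are from RefSeq. The scripts were tested on simulated data. Python 3.11.15 with matplotlib 3.10.9 was used for the figures.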

Additional observations from a re-analysis of the deposited data

How the results depend on the processing

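With 3 mice in each group, the calls rested on few libraries, whereas the direction did not. The median log2 fold change of the members lay between -0.93 and -0.64 when 1 library was left out, and the numbers of members lower at an adjusted p under 0.05 lay between 0 and 46, of those also above 2-fold between 0 and 30, and of the other translation genes between 0 and 28. The lowest values were those without WT replicate 3. Members lower numbered 12 without WT replicate 2 (12 above 2-fold and 4 other translation genes), 19 without sST2-KO replicate 1 (14 other translation genes), 26 without sST2-KO replicate 2 (12 other) and 15 without sST2-KO replicate 3 (14 above 2-fold and 6 other). Scaling by total counts moved the median of all genes to 0.29. It gave 24 members lower, 10 above 2-fold and 11 other translation genes, with medians of -0.54 for the members, -0.46 for the large and -0.67 for the small subunit. In that scaling 891 genes were lower, 691 of them by more than 2-fold, and 2181 were higher. In the main analysis 1323 were lower and 1524 higher. DESeq2 gave 49 members lower (1887 of 14542 genes) and no filter 38 (1319 of 24599 genes), and no alternative called a member higher. With the replicate number as a block, 0 members and 0 genes of the whole table passed, with 0 members above 2-fold and 0 other translation genes, at a median of -0.80 for the members. The labels do not state which samples share a litter, and the paper calls the WT mice littermates of the sST2-KO mice. Deviations of the same number correlated by -0.06, 0.21 and -0.31, and the numbers were not taken as pairs in the main analysis. Mrpl45, Mrpl33 and Mrpl52 changed sign with total counts (0.21, 0.25 and 0.18), and their ranges with 1 library left out were -0.56 to 0.15, -0.15 to 0.13 and -0.34 to 0.087. The cause of these changes was not tested.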
